A study of Mus musculus with 10 samples.

Results

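The genes described here encode the proteins of the cytosolic ribosome, measured in a mouse erythroleukemia (MEL) line and 4 subclones that express a tagged BCL11A. They were taken by symbol: a probe set entered when the platform table gave it 1 symbol that was Rpl or Rps followed by a digit, or Rpsa, Rplp0, Rplp1 or Rplp2, leaving out Rps6k kinases, pseudogenes and Rik symbols, and the brightest probe set stood for its gene. The rule found 50 of the 18193 genes with 1 symbol on the array, and 46 of these 50 passed the filter on low signals. It also took Rps19bp1, which encodes a protein that binds RPS19 and is not part of the ribosome, and 6 paralogs of other ribosomal protein genes (Rpl22l1, Rpl39l, Rpl3l, Rpl7l1, Rps27l and Rps4l). Another 110 probe sets carry several symbols that include a ribosomal protein, and genes read by such sets alone are not among the 50.

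Ribosomal proteins assemble with ribosomal RNA into a small subunit, which reads the message, and a large subunit, which joins the amino acids. Their messages are abundant, are made in step with one another, and as a rule begin with a cytosine followed by a run of pyrimidines, the terminal oligopyrimidine (TOP) element, through which their translation follows growth signals. In the red cell lineage the supply of ribosomes is critical: loss of 1 copy of Rps19 and of several other members causes Diamond-Blackfan anemia, and loss of Rps14 contributes to the anemia of the 5q- syndrome. A few members have a close paralog that can take their place in the ribosome, such as Rpl22l1 for Rpl22 and Rps27l for Rps27.

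The parental line, Mel-BirA, is a line of MEL cells, which are virus-transformed erythroid precursors, that expresses the bacterial biotin ligase BirA, and it was measured on 2 arrays. The subclones, named FBB1.11, FBB1.10, FBB1.7 and FBB1.5, derive from cells of this kind, also carry BirA, and express BCL11A, a repressor of fetal globin genes, with a FLAG-Biotag, a peptide that BirA biotinylates. Each subclone was measured on 2 arrays and is 1 clone, so that a difference of a subclone from the parental line belongs to that clone and cannot be told apart from clonal variation. Whether both arrays of a line stem from different cultures is not labelled. The p-values therefore rest on array-to-array spread, part or all of it possibly technical.

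Values are intensities on a linear scale from Affymetrix Mouse Genome 430 2.0 arrays. Array medians lay between 29.6 and 31.6. The ratio of 3′ to 5′ actin signal, a sign of RNA integrity, was 1.80 on parental array 2, 1.47 on FBB1.5 array 1 and between 1.06 and 1.22 on the other 8. Of 18 measured erythroid markers 15 were above the table's median intensity of 30.5 on every array, among them Gata1 (1993 to 2383), Klf1 (931 to 1270) and Epor (884 to 1194), while Slc4a1, the anion exchanger of mature red cells, lay between 4.40 and 13.4. Of 13 granulocyte and macrophage genes 7 were above the median on all arrays, among them Adgre1 (228 to 281), Csf1r (138 to 195) and Csf3r (83.5 to 124), and 5 were below it on all, among them Elane and Lyz1. Of 9 fibroblast and endothelial genes 3 were above on all arrays (Col1a2 at 71.2 to 144, Kdr and Pdgfra) and 4 below on all, among them Col1a1. Of 12 mast cell genes 4 were above the median on all arrays and 5 below it on all, among them Fcer1a and Ms4a2. Their summed signal was 6878 and 5718 on the parental arrays and ran from 1044 to 6620 on the tagged ones. Most of it came from 1 gene, Mcpt2 (630 to 5974).

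The start of the message is where the TOP element lies, so the bases around the annotated start are shown for selected members named below. Rpl7a and Rps18 are added as examples of long runs. Each window runs from 20 bases before the start to 10 bases from it, 5′ to 3′ on the gene's strand, from RefSeq on GRCm38.p6. Capitals mark the longest run of C or T that overlaps the 5 bases on either side of the start. A marked run need not begin with a C at the annotated start. The run of Rpl7a begins 14 bases before it, and that of Rps27l ends before it.
Rpl7a: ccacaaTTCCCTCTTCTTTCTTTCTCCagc
Rps18: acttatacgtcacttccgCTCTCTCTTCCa
Rps24: acgcccccgcgctggggTCCTTCCTTgcgc
Rps27: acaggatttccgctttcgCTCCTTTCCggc
Rps27l: cctctccaCTCCTCCCCgccgcctctatcc
Rpl22l1: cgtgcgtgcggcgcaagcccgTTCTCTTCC
Rpl14: cggcagggcgggCCCTCTCTCTTCTCgctg
Rpl27a: cgcgagacttcgtgagCTCCTCCCTTTTCC
Rpsa: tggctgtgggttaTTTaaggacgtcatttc
The windows lie at chr2:26910787-26910816 (Rpl7a, plus strand), chr17:33955656-33955685 (Rps18, minus), chr14:24490658-24490687 (Rps24, plus), chr3:90213639-90213668 (Rps27, minus), chr9:66946066-66946095 (Rps27l, plus), chr3:28805488-28805517 (Rpl22l1, plus), chr9:120571497-120571526 (Rpl14, plus), chr7:109519175-109519204 (Rpl27a, plus) and chr9:120127746-120127775 (Rpsa, plus). The runs of Rpl22l1 and Rpl27a go on past the window. Rps24 and Rps27l each have a further annotated start with a shorter run, of 2 and 4 bases. Rpl37 and Rpl22, also named below but not shown, had longest runs of 3 and 4 bases. Rpl7 had no annotated start to show.

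Of the 50 members 44 had an entry in the RefSeq promoter table, which holds 250 bases before and 50 after each start. A run of at least 6 C or T at the start was found in 23 of 44 (52.3%), against 4037 of 17492 protein-coding genes (23.1%). The median longest run was 6 bases in the members and 4 in the protein-coding genes. CCGGAAG, a core that ETS factors such as GABP bind, was present on either strand in 21 of 44 members (47.7%) and in 12.9% of protein-coding genes. The GC box GGGCGG was in 26 members (59.1%) against 49.2%, and TATAAA in 6 (13.6%) against 14.8%. TGACCA, the sequence that BCL11A is known to bind, was in 4 members (9.09%) against 14.3% of protein-coding genes. These counts describe letters in the windows and were not tested.

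The paralogs Rpl22l1 and Rps27l, whose signals differed between subclones, have the following 250 bases before the start, with each match to a searched motif in capitals: GGGCGG or its complement in both, and TATAAA, read on both strands in 1 overlapping run, in Rpl22l1.
Rpl22l1: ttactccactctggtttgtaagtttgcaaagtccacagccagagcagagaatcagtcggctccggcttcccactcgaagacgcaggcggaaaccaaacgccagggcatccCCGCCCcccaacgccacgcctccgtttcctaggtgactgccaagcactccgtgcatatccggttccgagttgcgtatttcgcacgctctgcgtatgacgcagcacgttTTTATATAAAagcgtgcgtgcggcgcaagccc
Rps27l: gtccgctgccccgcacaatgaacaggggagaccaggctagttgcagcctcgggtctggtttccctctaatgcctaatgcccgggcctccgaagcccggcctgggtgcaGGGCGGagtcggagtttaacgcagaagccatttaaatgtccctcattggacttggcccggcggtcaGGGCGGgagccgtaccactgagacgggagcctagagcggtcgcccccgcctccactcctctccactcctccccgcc
These stretches are chr3:28805258-28805507 and chr9:66945836-66946085 on the plus strand.

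As a group the ribosomal protein genes held nearly the same signal in the 5 lines. The 35 members with a mean intensity above 5000 averaged 13.20 on the log2 scale in the parental line, 13.22 in both FBB1.5 and FBB1.7, and 13.20 in both other subclones. Rps19, a small subunit protein needed for maturation of its RNA, read 6107 and 5989 on the parental arrays, 5990 and 6197 on those of FBB1.5, 6018 and 5897 on those of FBB1.7, 5986 and 5980 on those of FBB1.10 and 5834 and 6141 on those of FBB1.11. Its 5 line means spanned 0.032 on the log2 scale, and the parental arrays lay inside the span of the tagged ones. Rps2, which lies near the entry of the message channel, was as even, with parental arrays at 12334 and 11871 and tagged arrays from 12193 to 12496. Rps7, another small subunit protein, had parental values of 11621 and 11661 and tagged values from 11325 to 11830.

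Among the 46 tested members the range of the 5 line means had a median of 0.096 on the log2 scale and was under 0.2 in 36. For the 35 above 5000 it was under 0.2 in 34 (97.1%), with a median of 0.070, while the 95 probe sets above 5000 that name no ribosomal protein had a median range of 0.22 and 45 of them (47.4%) stayed under 0.2. The 105 further probe sets above 5000 that name a ribosomal protein, being other sets of the members or sets with several symbols, were counted apart: their median range was 0.072, and 99 (94.3%) stayed under 0.2. The median SD between arrays of a line was 0.027 in these members and 0.048 in the 95. The 4 members between 1000 and 5000 (Rpl22l1, Rpl27a, Rpl37 and Rps27l) had a median range of 0.47 against 0.32 in 905 probe sets of that brightness that name no ribosomal protein. The 14 further probe sets of that brightness that name a ribosomal protein had a median range of 0.17, and 8 of them (57.1%) stayed under 0.2. The bright members read up to 14140 and the brightest probe set of each array between 16170 and 17476, and whether signals are compressed near that ceiling was not tested. Brightness of different probe sets does not rank their messages.

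**Figure D1:**
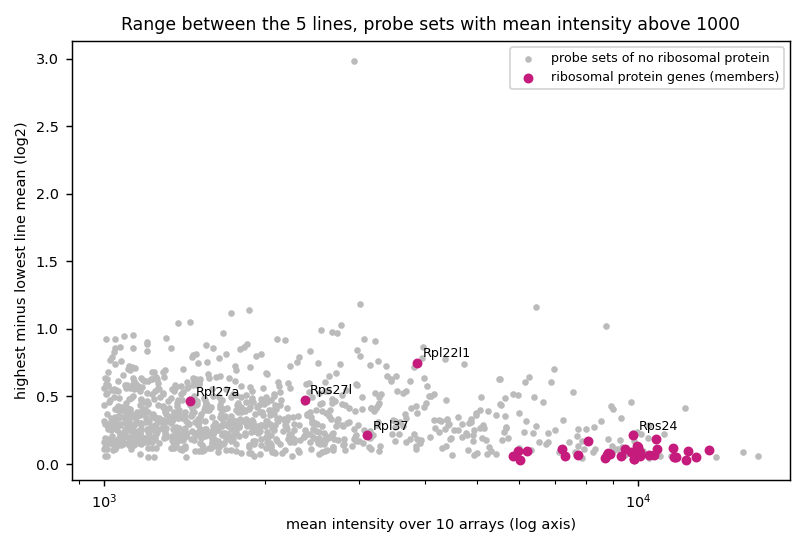
Each point is a probe set with a mean intensity above 1000: the x axis is its mean intensity over the 10 arrays (log axis) and the y axis the highest minus the lowest of its 5 line means on the log2 scale, with the ribosomal protein genes in pink and probe sets that name no ribosomal protein in grey (further probe sets that name one are not drawn). Above 5000, 34 of the 35 ribosomal protein genes lie under 0.2, and Rpl22l1 at 0.75 stands highest of the members.

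The first comparison asks whether cells with tagged BCL11A differ from the parental line in ribosomal protein messages. None of the 46 members passed at an adjusted p under 0.05 (limma with the line as a random block, Benjamini-Hochberg over 25061 probe sets), and the background was the same, with 0% of all probe sets called. At an unadjusted p under 0.05 there were 3 of 46 members and 8.74% of all probe sets. The median difference was 0.012 on the log2 scale in the members and 0.012 over all probe sets. The median size of the difference, regardless of sign, was 0.044 in the members and 0.12 over all.

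Small differences stood at the ends of the tagged comparison. The lowest were Rps6 at -0.27 ± 0.16 (SE), the S6 kinase target of the small subunit, Rpl14 at -0.26 ± 0.12 and Rps25 at -0.21 ± 0.10. The highest were Rpl27a at 0.29 ± 0.14, Rps27l at 0.24 ± 0.12 and Rpl7 at 0.12 ± 0.054. None of these 6 had an adjusted p (limma) under 0.55, and 3 of them, Rps6, Rps25 and Rpl14, are read by dim probe sets with means of 155, 342 and 722.

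Each subclone was then set against the parental line in a fit of 5 line means. FBB1.7 departed most: 7 of 46 members passed (15.2%), 3 higher and 4 lower, where 10.1% of all probe sets were called (4.55% higher and 5.5% lower). That background is mostly dim, and brighter probe sets were called more often. Above 5000, 2 of 35 members passed (5.71%) against 50.5% of the 95 probe sets that name no ribosomal protein. From 1000 to 5000 the shares were 4 of 4 members against 39.8%, and under 1000, 1 of 7 (14.3%) against 8.77%. Of further probe sets that name a ribosomal protein, 2.86% of 105 above 5000 were called. From 1000 to 5000 it was 35.7% of 14, and under 1000, 12.1% of 33. In FBB1.5, 2 members passed (4.35%), both higher, against 2.02% of all probe sets (1.29% higher and 0.734% lower). FBB1.10 gave 0 of 46 against 1.8% (1.08% higher and 0.718% lower). At an unadjusted p under 0.05 it had 9 members against 15.4% of all probe sets, and its smallest adjusted p was 0.067, for Rpl7. Without parental array 1, 3 members passed in FBB1.10. FBB1.11 gave 0 of 46 against 0.188% (0.0758% higher and 0.112% lower). At an unadjusted p under 0.05 it had 1 member, Rpl27a, whose adjusted p was 0.18, against 11.8% of all probe sets. Between the 4 subclones, in a moderated F test, 3 members passed (6.52%) against 7.24%. This test does not compare with the parental line, but the parental arrays enter its pooled spread. Above 5000, 1 of 35 members passed it (2.86%) against 43.2% of the 95 probe sets that name no ribosomal protein. From 1000 to 5000 it was 2 of 4 members against 32.2%, and under 1000, 0 of 7 against 6.15%. The 4 comparisons with the parental line share its 2 arrays. Among the 101 tested probe sets with several symbols that include a ribosomal protein, 4 were higher in FBB1.5 (3.96% against 1.29% of all probe sets). In FBB1.7 8 were lower (7.92% against 5.5%), in FBB1.10 2 were lower (1.98% against 0.718%), and 0 were called in FBB1.11 (0.188% of all). The F test called 7 of them (6.93% against 7.24%).

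**Figure D2:**
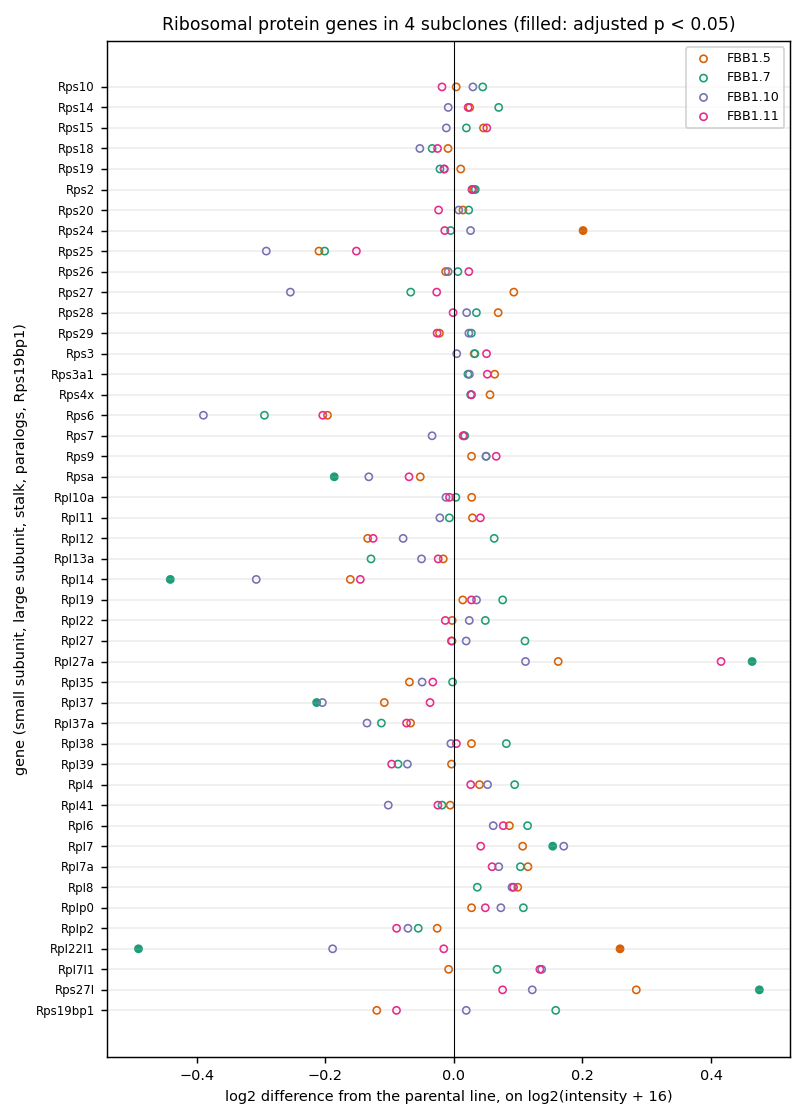
For each of the 46 tested genes, grouped as small subunit, large subunit, stalk, paralogs and Rps19bp1 from top to bottom, the points give the log2 difference of each subclone from the parental line, filled where the adjusted p was under 0.05. Most points lie within 0.2 of zero, and the filled ones are Rpl22l1 and Rps24 in FBB1.5 and Rpl22l1, Rps27l, Rpl14, Rpl27a, Rpl37, Rpsa and Rpl7 in FBB1.7.

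The median difference of the members stayed near zero in each subclone: it was 0.015 for FBB1.5 (0.020 over all probe sets), while FBB1.7 gave 0.025 (0.0037), FBB1.10 gave -6.4e-05 (0.019) and FBB1.11 gave -0.0053 (0.011). Differences regardless of sign had a median of 0.065 in FBB1.7 against 0.18 over all probe sets, and of 0.035, 0.050 and 0.036 against 0.13, 0.14 and 0.14 for FBB1.11, FBB1.10 and FBB1.5. Of 20 tested small subunit genes 1 (5%) rose in FBB1.5, Rps24, against 1.29% of all probe sets. In FBB1.7 1 of the 20 (5%) fell, Rpsa, against 5.5%. Of 22 large subunit and stalk genes 4 passed in FBB1.7 (18.2% against 10.1% of all probe sets), 2 in each direction. The 3 tested paralogs gave 1 call in FBB1.5 (2.02% of all probe sets), 2 in FBB1.7 (10.1%) and 2 between the subclones (7.24%). Under quantile normalization or centring of each array on its median these medians became slightly negative in every subclone, as given in the closing section.

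Rpl22l1 differed most. It encodes the paralog of RPL22, a large subunit protein on the outer surface of the ribosome that binds RNA. Its intensity was 4027 and 4058 on the parental arrays, 4832 and 4846 on those of FBB1.5, 2768 and 2982 on those of FBB1.7, 3724 and 3375 on those of FBB1.10 and 4031 and 3967 on those of FBB1.11. FBB1.5 was thus above and FBB1.7 below every other array, FBB1.10 lay below the parental arrays, and FBB1.11 overlapped them. The difference from the parental line was 0.26 ± 0.059 (SE, limma adjusted p = 0.035) in FBB1.5 and -0.49 ± 0.059 (adjusted p = 0.00016) in FBB1.7. The subclone means spanned 0.75 (F test, adjusted p = 3.6e-05). The call in FBB1.7 held with each array left out (adjusted p up to 0.0048), whereas the call in FBB1.5 was lost without either parental array, either FBB1.5 array or either FBB1.11 array (adjusted p up to 0.19).

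Rpl22 itself was read by 3 probe sets that did not move alike. The brightest, which stands for the gene, had line means from 9120 to 9523 around a parental mean of 9205 ± 133 (SD, n = 2 arrays), and it and the next set (parental mean 6440) had adjusted p-values of at least 0.46 in each comparison. The dimmest, which like the brightest has the s suffix of sets with probes shared between transcripts, read 1892 and 1793 on the parental arrays, 2344 and 2079 on those of FBB1.5, 895 and 865 on those of FBB1.7, 1272 and 1141 on those of FBB1.10 and 1598 and 1548 on those of FBB1.11. All FBB1.7, FBB1.10 and FBB1.11 arrays lay below the parental ones and the FBB1.5 arrays above them. The difference was -1.05 ± 0.080 (limma adjusted p = 5.6e-06) in FBB1.7 and -0.61 (adjusted p = 0.0016) in FBB1.10, and the subclone means spanned 1.31 (adjusted p = 2.7e-06). The 5 line means of this set and of Rpl22l1 stand in the same order, FBB1.5, parental, FBB1.11, FBB1.10 and FBB1.7 from high to low, though parental and FBB1.11 do not differ beyond their spread for Rpl22l1. This set was singled out after its values were seen.

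Rps27l, the paralog of the zinc finger protein RPS27 and a known target of p53, rose in FBB1.7. It read 1888 and 2251 on the parental arrays, 2403 and 2629 on those of FBB1.5, 2769 and 2979 on those of FBB1.7, 2219 and 2271 on those of FBB1.10 and 2101 and 2249 on those of FBB1.11. FBB1.7 was above every other array, FBB1.5 above the remaining ones, and FBB1.10 and FBB1.11 overlapped the parental arrays. The difference was 0.48 ± 0.082 (limma adjusted p = 0.0021) in FBB1.7 and 0.28 ± 0.082 (adjusted p = 0.098) in FBB1.5, and the subclone means spanned 0.40 (adjusted p = 0.019). The other 2 probe sets of Rps27l gave 0.46 and 0.46 in FBB1.7, with adjusted p-values of 0.0013 and 0.005. Both carry the x suffix of sets with probes that may bind unrelated transcripts. The dimmer of them lost its call without FBB1.7 array 2, unlike the set that stands for the gene. The rise in FBB1.7 held with each array left out (adjusted p up to 0.035), but the F test between subclones lost its call without either FBB1.7 array or without FBB1.11 array 1 (up to 0.15).

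Its partner Rps27 was dim, with parental arrays at 84.1 and 85.8 and tagged arrays from 67.0 to 96.6, and it passed in no comparison. FBB1.5 lay above the parental arrays, FBB1.10 below them, and FBB1.7 and FBB1.11 on either side. Rpl7l1, a paralog of Rpl7, lay between 280 and 297 in the parental line and between 282 and 346 in the tagged arrays and did not pass either. The paralogs Rpl39l, known from testis, Rpl3l, known from muscle, and Rps4l were not above the table median on any array, with means of 4.75, 12.2 and 7.63. The probe set with the single symbol Rps16 was not above the median on any array either (mean 9.32), although Rps16 encodes a core protein of the small subunit.

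**Figure D3:**
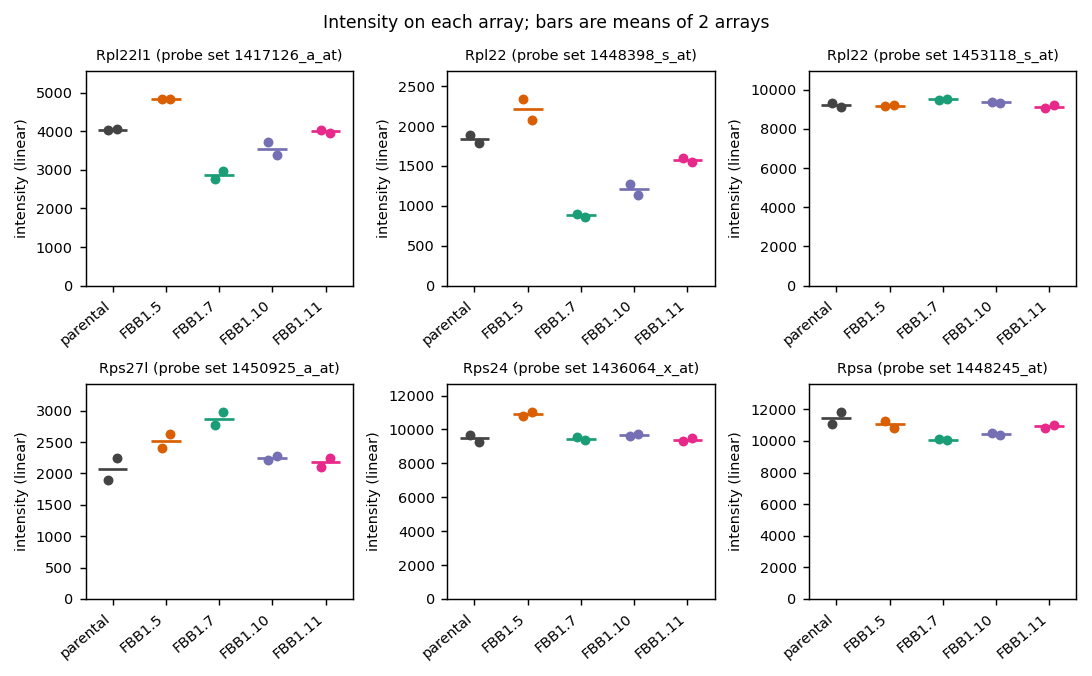
Points give the linear intensity on each of the 2 arrays of each line for selected genes and probe sets, with bars at the line means. Rpl22l1 and the dim probe set of Rpl22 are lowest in FBB1.7, Rps27l is highest there, and Rps24 is highest in FBB1.5.

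Rps24, a small subunit protein needed for maturation of the small subunit RNA and a Diamond-Blackfan anemia gene, rose in FBB1.5. Its arrays read 9697 and 9283 on the parental arrays, 10785 and 11034 on those of FBB1.5, 9560 and 9353 on those of FBB1.7, 9595 and 9728 on those of FBB1.10 and 9301 and 9491 on those of FBB1.11. Both FBB1.5 arrays lay above all others, and the other subclones overlapped the parental line. The difference was 0.20 ± 0.039 (limma adjusted p = 0.015), and the subclone means spanned 0.22 (adjusted p = 0.0067). All 4 bright probe sets of Rps24 passed in FBB1.5, with differences from 0.19 to 0.28 and adjusted p-values from 0.0035 to 0.019, and all 4 carry the x suffix of sets with probes that may bind unrelated transcripts. Its 2 sets without that suffix are dim, with parental means of 67.6 and 37.0, and did not pass. With the brighter of these standing for the gene, the difference in FBB1.5 was 0.21 (limma adjusted p = 0.63) and the F test gave an adjusted p of 0.91. With the mean of all 6 sets the difference was 0.25 (adjusted p = 0.062).

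Rps24 lies at chr14:24490678-24496960 and is the one member on that chromosome. In FBB1.5, 86 of 440 tested genes named on chromosome 14 passed (19.5%) against 1.75% of 11992 genes elsewhere, and the median difference was 0.24 against 0.0081. Among the 141 genes of chromosome 14 above an intensity of 200 the median was 0.42, which exceeds the value of Rps24. What part this has in the rise of Rps24 was not tested. Without parental array 2 and FBB1.5 array 1, the arrays with the highest actin ratios, the difference was 0.19 with an adjusted p of 0.11, and the call was also lost without parental array 2 or either FBB1.5 array alone (adjusted p up to 0.14). Without either FBB1.5 array the F test missed the threshold too (up to 0.10).

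**Figure D4:**
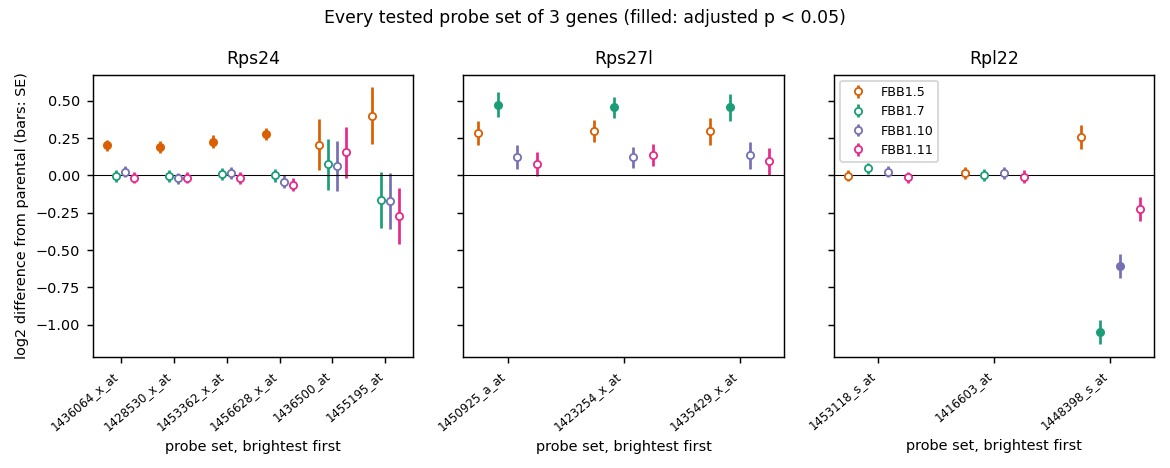
Points are the log2 difference of each subclone from the parental line for every tested probe set of 3 genes, brightest set first, with bars of 1 SE and filled where the adjusted p was under 0.05. The 4 bright sets of Rps24 are filled in FBB1.5, the 3 sets of Rps27l are filled in FBB1.7, and of the 3 Rpl22 sets the dimmest alone is filled, in FBB1.7 and FBB1.10.

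The remaining calls in FBB1.7 were small or rested on dimmer probe sets. Rpsa, the laminin receptor homolog of the small subunit, read 11098 and 11829 in the parental line and 10108 and 10033 in FBB1.7, a difference of -0.19 ± 0.040 (limma adjusted p = 0.0089). Its arrays in FBB1.10 and FBB1.11 (10389 to 11007) were also below both parental arrays without passing. Rpl14, a large subunit protein, read 817 and 848 in the parental line and 603 and 615 in FBB1.7 (-0.44 ± 0.11, adjusted p = 0.016). Rpl37, another large subunit protein, fell from 3346 and 3379 to 3057 and 2747 (-0.21 ± 0.061, adjusted p = 0.038). Its probe set carries the x suffix.

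Rpl27a, a large subunit protein, rose from 1173 and 1271 in the parental line to 1745 and 1638 in FBB1.7 (0.46 ± 0.12, limma adjusted p = 0.022). Its FBB1.11 arrays, at 1820 and 1467, were also above the parental ones (0.42 ± 0.12, adjusted p = 0.18). Rpl7, also of the large subunit, rose from 7799 and 7318 to 8361 and 8451 in FBB1.7 (0.15 ± 0.044, adjusted p = 0.04), and its FBB1.10 arrays, at 8571 and 8443, gave 0.17 ± 0.044 (adjusted p = 0.067). The called set of Rpl7 carries the x suffix, and its other 2 probe sets did not pass in FBB1.7 (0.14 and 0.013). Conversely a dimmer set of Rpl13a passed as lower in FBB1.7 (-0.32, adjusted p = 0.0055) where its 3 brighter sets did not (adjusted p of 0.06, 0.17 and 0.51).

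In none of the 7 genes called in FBB1.7 did an FBB1.7 array overlap a parental one, but such separation of 2 against 2 arrays was common: 27 of 46 members (58.7%) and 51.2% of all probe sets had it. Leaving out 1 array at a time left 2 to 7 members called, and Rpl22l1 and Rps27l kept their calls each time. Rpsa and Rpl14 lost theirs without parental array 2 or either FBB1.7 array (limma adjusted p up to 0.065 and 0.11), and Rpl27a without parental array 1 or either FBB1.7 array (up to 0.16). Rpl37 lost its call without either parental array, FBB1.7 array 2 or either FBB1.11 array (up to 0.31), and Rpl7 without parental array 2 or either array of FBB1.7, FBB1.10 or FBB1.11 (up to 0.22). With the actin ratio as a covariate, or without the 2 arrays of highest ratio, 2 and 3 members passed. Mast cell genes were lower in several subclones, including those with no member called: of 7 tested, 4 fell in FBB1.7 (5.5% of all probe sets), 4 in FBB1.10 (0.718%), 3 in FBB1.11 (0.112%) and 1 in FBB1.5 (0.734%). Mcpt2, a mast cell protease, read 5974 and 4933 on the parental arrays, 5522 and 4454 on those of FBB1.5, 716 and 630 on those of FBB1.7, 2356 and 1836 on those of FBB1.10 and 1519 and 1456 on those of FBB1.11. Of 16 tested erythroid genes 6 passed in FBB1.7 (37.5% against 10.1%), 2 higher and 4 lower. In FBB1.5 1 rose (6.25% against 1.29% of all probe sets), in FBB1.10 1 rose (6.25% against 1.08%), and 0 passed in FBB1.11. The part of either list in the ribosomal protein values was not tested.

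The genes of Diamond-Blackfan anemia and Rps14 made up 14 tested members. Rps24 in FBB1.5 was the one that passed against the parental line (7.14% against 2.02% of all probe sets). Differences of these 14 ran from -0.069 to 0.20 in FBB1.5, the highest being Rps24, and from -0.067 to 0.11 in FBB1.7. They ran from -0.25 (Rps27, a dim set) to 0.090 in FBB1.10 and from -0.033 to 0.093 in FBB1.11. Rps14 read 8627 and 8690 in the parental line and 8451 to 9243 in the tagged arrays, with overlap. The stalk proteins recruit the GTPases of translation. Rplp0, the anchor of the stalk, read 10585 and 10392 in the parental line and 10446 to 11349 in the tagged arrays, and Rplp2 read 10216 and 10646 against 9642 to 10382. Neither passed in any comparison, and Rplp1 had no probe set with a single symbol.

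Genes around the ribosomal proteins were taken from lists by function, and FBB1.7, which had the most calls over all probe sets, had the most in several of these lists too. Of 54 tested assembly factors 11 passed there (20.4% against 10.1% of all probe sets), 10 higher (4.55% of all) and 1 lower (5.5%), with a median difference of 0.13 against 0.0037. Imp4, a component of the small subunit processome, rose from 234 and 243 to 395 and 389 (0.68, limma adjusted p = 9e-04), Pno1, a late small subunit factor, by 0.61 (adjusted p = 0.0024), and Fbl, the methylase of ribosomal RNA, by 0.45 (adjusted p = 0.004). The importin gene Ipo7 fell by 0.45 (adjusted p = 0.0051). In FBB1.10 1 factor passed (1.85% against 1.8%), Ncl (0.25, adjusted p = 0.019), which encodes nucleolin. In FBB1.5 2 passed (3.7% against 2.02%): Gnl3, nucleostemin, on chromosome 14, rose by 0.58 (adjusted p = 0.0051) and Rrp9 fell by 0.54 (adjusted p = 0.025), and in FBB1.11 none of the 54 passed.

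Other messages known to carry a TOP element gave 6 calls of 19 in FBB1.7 (31.6% against 10.1% of all probe sets), all lower (5.5% of all) and 0 higher (4.55%), with a median of -0.099. Brighter probe sets were called more often in FBB1.7: 39.8% of those from 1000 to 5000 that name no ribosomal protein, and 50.5% above 5000. The list was not matched for brightness. The ribosomal protein genes had 4 lower and 3 higher of 46. Eif3f, a subunit of initiation factor 3, read 4665 and 4677 in the parental line and 3373 and 3222 in FBB1.7 (-0.50, limma adjusted p = 0.00013). The snoRNA hosts Snhg8 (-0.65, adjusted p = 0.00014) and Gas5 (-0.38, adjusted p = 0.00066) fell too, and the other 3 were Eif4b, Eif3k and Snhg12. In FBB1.10 2 of 19 passed (10.5% against 1.8%), with Snhg8 (-0.45, adjusted p = 0.0087) and Eif3f (-0.25, adjusted p = 0.039) lower. In FBB1.5 2 of 19 passed (10.5% against 2.02%). Tpt1, which lies on chromosome 14 and encodes a translationally controlled tumor protein, rose there (0.27, adjusted p = 0.003), and Snhg12 fell (-0.50, adjusted p = 0.042). The difference between the TOP list and the ribosomal protein genes was not tested.

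RNA polymerase I and III genes, 24 tested, gave 3 calls in FBB1.5 (12.5% against 2.02% of all probe sets), all higher (Gtf3a, 0.59, limma adjusted p = 0.0027, Polr1d, 0.40, adjusted p = 0.0091, and Gtf3c2) and 1 call in FBB1.7 (4.17%, below the 10.1% of all probe sets), lower (Polr1c, -0.48, adjusted p = 0.006). Of 17 regulators of ribosomal protein messages, Myc, a transcription factor that drives ribosome production, rose in FBB1.5 from 464 ± 23.2 to 647 ± 6.16 (SD, n = 2 arrays each, 0.47, adjusted p = 0.027). This was 1 of 17 (5.88% against 2.02%). In FBB1.7 3 of 17 rose, Sp1, Eif4ebp1 and Mycn (17.6% against 10.1%). Myc read 395 ± 30.3 there, below the parental mean, and did not pass. Mycn read 6926 ± 18.9 in the parental line and 7702 ± 256 in FBB1.7. In FBB1.5 Mycn was lower, at 6480 ± 94.1, and did not pass. Of 11 p53 response genes, a list that leaves out Rps27l, 2 fell in FBB1.7 (18.2% against 10.1% called in either direction): Trp53inp1 (-1.03, limma adjusted p = 0.0096) and Zmat3 (-0.52, adjusted p = 0.018). Both are dim. Trp53inp1 read 86.6 and 86.4 in the parental line and 48.7 and 23.1 in FBB1.7, 1 of these below the table median. Zmat3 read 84.0 and 82.7 against 53.8 and 52.7. Mitochondrial ribosomal protein genes, which share a name and not a pathway with the members, had 13 of 76 higher and 0 lower in FBB1.7 (17.1% against 10.1%), led by Mrps5 (0.70, adjusted p = 0.0015) and Mrps22 (0.59, adjusted p = 0.0036), 2 higher in FBB1.10 (2.63% against 1.8%) and 0 called in FBB1.5 and FBB1.11. None of these lists was tested against other genes or matched for brightness. Fau, whose product is a fusion that yields the small subunit protein eS30, read 7239 and 7549 in the parental line, had line means from 6917 to 7353 in the subclones and did not pass (adjusted p of at least 0.34).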

How the data were processed

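Each line's RNA was hybridised to Affymetrix Mouse Genome 430 2.0 arrays, 2 per line and 10 in all. The authors deposited 1 intensity per probe set and array, on a linear scale, and how probes were summarised into it is not given here. Array medians of log2(intensity + 16) agreed within 0.062, so no further normalization was applied; 64 control probe sets were left out. Probe sets above the table median of 30.5 on at least 2 arrays were tested (25061 of 45037) with limma 3.58.1 in R 4.3.3: the tagged comparison with the line as a random block (consensus correlation 0.21), subclones in a fit of 5 line means with 5 residual degrees of freedom, with a trend on intensity, and p-values adjusted by Benjamini-Hochberg over the tested probe sets. Fold changes of dim probe sets are understated by the added 16.

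Genes were named when they passed in any comparison, were among the 3 highest or lowest differences, were paralogs, stalk, anemia or chromosome 14 members, or were below the filter; up to 3 leading genes stood for each other list, and further called genes are named after their values were seen. The members and lists were chosen with earlier results of these data known. The scripts were tested on simulated data. Probe sets were named by the platform annotation supplied with the series; all 50 symbols matched RefSeq. A further 110 probe sets with several symbols that include a ribosomal protein were left out. Same-numbered arrays did not pair (see the closing section).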

Additional observations from a re-analysis of the deposited data

Results flagged for a closer look

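Of the 46 tested genes 2 had an array far from the rest of the 8 tagged arrays, a rate close to the 1 in 20 that such a criterion gives by chance. Rpl19, a large subunit protein, read 9406 on FBB1.7 array 1, and the next highest tagged array read 8937. Rpl39, one of the smallest large subunit proteins, read 6423 on FBB1.5 array 1, the next highest tagged array 5952, and the parental arrays 6367 and 6017.

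In 3 genes the subclones differed from each other by the F test. The subclone means of Rpl22l1 spanned 0.75 on the log2 scale, those of Rps27l 0.40 and those of Rps24 0.22.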

How the results depend on the processing

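No called gene reversed in direction in any alternative, but several median differences of the members changed sign, as given below. The tagged comparison called 0 members in each of the alternatives run, including a fit of 5 line means and 1 value per line. Against 2 members called in FBB1.5, 1 was called under quantile normalization or centring of each array (Rps24), with the mean of all probe sets of a gene or the brightest set without an x or s suffix (Rpl22l1), or without the 2 arrays of highest actin ratio (Rps27l, gained, with both others lost; chosen after seeing the data), and 0 with no intensity filter or with no intensity trend. Against 7 in FBB1.7, 3 were called with no filter, 1 (Rpl22l1) with no trend, 2 (Rpl22l1 and Rps27l) with the actin ratio as a covariate and 3 without the 2 arrays. FBB1.10 went from 0 to 2 under quantile normalization (Rpl22l1 and Rpl37, lower) and to 1 (Rpl7) with a filter on all 10 arrays. The F test went from 3 to 1 (Rpl22l1) with no filter or no trend. Apart from these settings' own construction, the cause was not tested.

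Leaving out 1 array at a time gave 0 to 2 calls for FBB1.5, 2 to 7 for FBB1.7, 0 to 3 for FBB1.10 and 2 to 3 between subclones. FBB1.7 fell to 3 without parental array 2, 3 without FBB1.7 array 1 and 2 without FBB1.7 array 2, FBB1.5 to 1 without parental array 1 or either FBB1.11 array (Rps24) or without parental array 2 (Rps27l, gained, with both others lost) and to 0 without either FBB1.5 array, and the 3 in FBB1.10 came without parental array 1. The F test went to 2 without FBB1.5 array 1, either FBB1.7 array or FBB1.11 array 1, and stayed at 3 without FBB1.5 array 2, where Rps24 was lost and Rpl27a gained.

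The median difference moved by more than its spread between arrays of 0.011 in several settings. Under quantile normalization it was -0.018 for tagged against parental, and FBB1.5 gave -0.0071, FBB1.7 gave -0.014, FBB1.10 gave -0.023 and FBB1.11 gave -0.020. With centring it was -0.016, -0.013, -0.0039, -0.032 and -0.031 in the same order. It was 0.0082 in FBB1.7 with the actin covariate and 0.027 in FBB1.5 without the 2 arrays. With the mean of all probe sets it was -0.0020 (tagged), 0.028 (FBB1.5), -0.0058 (FBB1.7), -0.015 (FBB1.10) and 0.086 (median range between subclones), and without x or s sets 0.028 (FBB1.5), 0.014 (FBB1.11) and 0.086 (range). With 1 array left out it ran from 0.013 to 0.030 in FBB1.5 and from -0.0087 to 0.019 in FBB1.11.

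Same-numbered arrays did not deviate together (correlations of their deviations from -0.16 to 0.18), so the numbers were not taken to pair arrays. With the replicate block the calls numbered 3 for FBB1.5, 7 for FBB1.7, 0 for both FBB1.10 and FBB1.11 and 3 between subclones. With 2 arrays of 1 clone a line, clone and tag cannot be told apart. The dim sets of Rpl12, Rps27 and Rps6 had SDs between arrays of a line of 0.23, 0.098 and 0.22 on the log2 scale. Small differences were not detectable in such sets.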
